A study of Mus musculus with 8 samples.

Results

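This account covers 36 genes of the ATF4 arm of the integrated stress response in mouse embryonic fibroblasts. They were taken by name from the count table in 4 classes: 11 stress transcription factors and regulators, 6 enzymes of serine, asparagine and proline synthesis, 5 enzymes of one-carbon metabolism and 14 cytosolic aminoacyl-tRNA synthetases. All 36 names were found among the 30419 rows of the table, and 35 had 10 or more counts in 2 or more libraries and were tested, among 12296 rows tested in all. The remaining gene, Pycr1, an enzyme of the last step of proline synthesis, had 3 to 10 counts per library and was not tested.

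The cells were early-passage fibroblasts of E13.5 embryos, grown in DMEM with serum, and RNA was measured in 8 libraries, 2 per group. The groups were Dino lox/lox cells, labelled DINO mutant (DINO loxP/loxP), given 0.2 µg/mL doxorubicin for 8 h; Dino lox/lox control cells; Dino+/+ (WT) cells given the same doxorubicin; and Dino+/+ control cells, where the controls received vehicle alone. Doxorubicin is an anthracycline that poisons topoisomerase II and breaks DNA, and Dino is a long noncoding RNA gene next to Cdkn1a that the p53 response to DNA damage induces. The labels name neither a Cre nor a clone and do not say whether the 2 libraries of a group, A and B, came from separate embryos or cultures, so the p-values measure only the spread between these libraries, which may be technical. Dino itself was not analysed here.

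ATF4 is a bZIP transcription factor whose mRNA is translated when the initiation factor eIF2 is phosphorylated, as happens on amino acid shortage or stress in the endoplasmic reticulum. It pairs with C/EBP proteins on composite C/EBP-ATF elements and drives genes for amino acid synthesis and uptake, for the mitochondrial folate enzymes and for the cytosolic tRNA synthetases, which load amino acids onto tRNAs. Cultured fibroblasts transcribe many of these genes without added stress, since a dividing cell draws on serine, asparagine, proline and one-carbon units for protein and nucleotide synthesis. None of the values below measures ATF4 protein or its binding.

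The sequence that ATF4 and its partners are known to recognise was looked up in the promoters. RefSeq windows (GRCm38.p6) from 250 bases before to 50 bases after the start were found for 29 of the 36 genes, and the 8-letter core TGATGNAA, searched on both strands, stood in 11 of them (37.9%), against 1219 of 27025 mouse genes with such a window (4.51%). Among the synthetases 5 of 8 windows held it, among the regulators 4 of 10, among the enzymes of serine, asparagine and proline synthesis 2 of 6, and among the one-carbon enzymes 0 of 5. The 36 genes were chosen by name as genes of the ATF4 response, so a share above that of all genes was partly set by the choice. It is no test of the doxorubicin response. The 30 bases around a match are shown here for most of these genes, on the strand of the gene, with the core, or its reverse complement where the match is on the other strand, in capitals.
Nupr1 (chr7:126625562-126625591, minus strand): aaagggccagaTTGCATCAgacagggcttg
Trib3 (chr2:152344028-152344057, minus strand): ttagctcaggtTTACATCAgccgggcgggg
Chac1 (chr2:119351038-119351067, plus strand): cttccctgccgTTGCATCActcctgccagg
Vldlr (chr19:27216809-27216838, plus strand): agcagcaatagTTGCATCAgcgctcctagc
Asns (chr6:7693214-7693243, minus strand): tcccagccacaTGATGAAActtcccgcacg
Pycr1 (chr11:120643833-120643862, minus strand): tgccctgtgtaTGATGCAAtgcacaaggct
Gars (chr6:55037960-55037989, plus strand): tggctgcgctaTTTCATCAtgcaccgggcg
Iars (chr13:49682126-49682155, plus strand): cactgtcagtaTTGCATCAcctccagacgc
Tars (chr15:11399655-11399684, minus strand): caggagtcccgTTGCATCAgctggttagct
Yars (chr4:129189895-129189924, plus strand): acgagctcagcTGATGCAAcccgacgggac
The core was identical, apart from its orientation, in Nupr1, Chac1, Vldlr, Pycr1, Iars, Tars and Yars. Asns, the gene on which the nutrient-response form of the element is best known, differs from these at the free position, and so does Gars, whereas Trib3 has another letter there. Both the strongly lowered Mthfd2 and Atf4 itself had no match in their windows. The Asns window, with its 1 match in capitals, and the Mthfd2 window, with none, are given for the wider context, both on the minus strand.
Asns window (chr6:7693160-7693459): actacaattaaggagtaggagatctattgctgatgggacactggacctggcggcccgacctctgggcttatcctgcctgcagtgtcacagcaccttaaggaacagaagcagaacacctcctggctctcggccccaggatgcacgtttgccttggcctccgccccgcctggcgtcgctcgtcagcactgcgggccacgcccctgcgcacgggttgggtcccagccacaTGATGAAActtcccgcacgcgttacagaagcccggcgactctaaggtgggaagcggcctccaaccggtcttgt
Mthfd2 window (chr6:83317555-83317854): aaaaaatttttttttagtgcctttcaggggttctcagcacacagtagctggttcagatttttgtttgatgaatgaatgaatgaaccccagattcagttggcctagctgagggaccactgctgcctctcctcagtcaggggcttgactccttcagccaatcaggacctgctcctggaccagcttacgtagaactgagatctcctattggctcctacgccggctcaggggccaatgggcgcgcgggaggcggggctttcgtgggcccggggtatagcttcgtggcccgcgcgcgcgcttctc
A match is a description of these letters and not a measured site, and its absence says only that the letters are not in this window. For Trib3, Mthfd1, Mthfd1l and Sars the bases after the start were not found in an annotated transcript of the gene. The starts used for those windows are therefore less certain. The genes whose windows held the core did not all move the same way: of the genes that doxorubicin lowered in WT cells 8 of 21 with a window held it, as did 1 of 2 of those it raised (Vldlr) and 1 of 5 of those not called (Gars). The E-box CACGTG, a palindrome and a different sequence from the C/EBP-ATF core, was searched as well. It stood in 5 of the 29 windows (17.2%), against 8.09% of all genes with a window. That share also comes from genes chosen by name and is no test of the doxorubicin response.

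Library totals ran from 25482805 to 33285171 counts, and levels are given as CPM, a gene's counts relative to its library's total as scaled by TMM factors, which allow comparison of a gene between libraries but not of genes with each other. The doxorubicin check was met in both genotypes: Mdm2, a p53 target, averaged 1053 ± 20.9 CPM in mutant doxorubicin libraries against 140 ± 6.62 CPM in mutant controls. In WT cells the levels were 1159 ± 65.0 CPM in doxorubicin libraries against 136 ± 5.39 CPM in controls (SD, n = 2 each). All 10 fibroblast markers were above 1 CPM in every group, with summed levels of 3819 to 4527 CPM, although 4 of them fell with doxorubicin in each genotype. Of the same 10 markers, 1 rose in mutant cells and 3 rose in WT cells. Pdgfra, a receptor for platelet-derived growth factors, fell by 1.80 ± 0.10 on the log2 scale in mutant cells and by 1.90 ± 0.10 in WT cells. Dcn, which encodes decorin, rose by 0.47 ± 0.08 in mutant cells and by 0.50 ± 0.08 in WT cells. Summed macrophage and leukocyte markers were 40.3 to 43.9 CPM in mutant doxorubicin libraries against 33.6 to 33.8 CPM in mutant controls, and 35.9 to 38.3 CPM in WT doxorubicin libraries against 24.5 to 26.7 CPM in WT controls, with 0 of 12 markers at 0. Summed endothelial markers were 5.73 to 5.86 CPM in mutant doxorubicin libraries against 1.34 to 1.73 CPM in mutant controls, and 6.64 to 11.1 CPM in WT doxorubicin libraries against 2.08 to 2.96 CPM in WT controls, with 1 to 3 of 6 markers at 0 in a group. Of the 3 endothelial markers tested, only Tek was called in either response, and it was higher with doxorubicin in both genotypes. Tek made up most of the endothelial sum in every doxorubicin library, so the rise of that sum was mainly the rise of 1 gene. The other tested endothelial markers, Kdr and Cdh5, were not called. The part of these marker changes in the results below was not tested. Libraries A and B of WT cells with doxorubicin differed more than those of the other groups, with a chi-square statistic over its degrees of freedom of 18.9, against 5.71 to 6.52 elsewhere.

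Doxorubicin lowered most of the 36 genes in both genotypes. In mutant cells 24 of the 36 fell, 3 rose, 8 were not called and 1 was not tested; in WT cells 25 fell, 3 rose, 7 were not called and 1 was not tested (edgeR quasi-likelihood test, called at a Benjamini-Hochberg adjusted p under 0.05 over all genes). Over all tested genes 25.7% fell and 28.3% rose in mutant cells, 54.0% in all, and 27.9% fell and 29.3% rose in WT cells, 57.2% in all, so that among the 36 the count lower stood above the background and the count higher below it. The median log2 fold change of the 35 tested genes was -0.63 in mutant cells and -0.60 in WT cells, against 0.01 for all tested genes in either genotype. Both genotypes lowered 23 of the genes and raised 3 of them (Vldlr, Mthfd1 and Eif4ebp1), while Ddit3, Cebpb, Ppp1r15a, Phgdh, Cars and Rars were called in neither. In bulk RNA, fewer cells of a kind and less RNA per cell cannot be told apart.

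**Figure D1:**
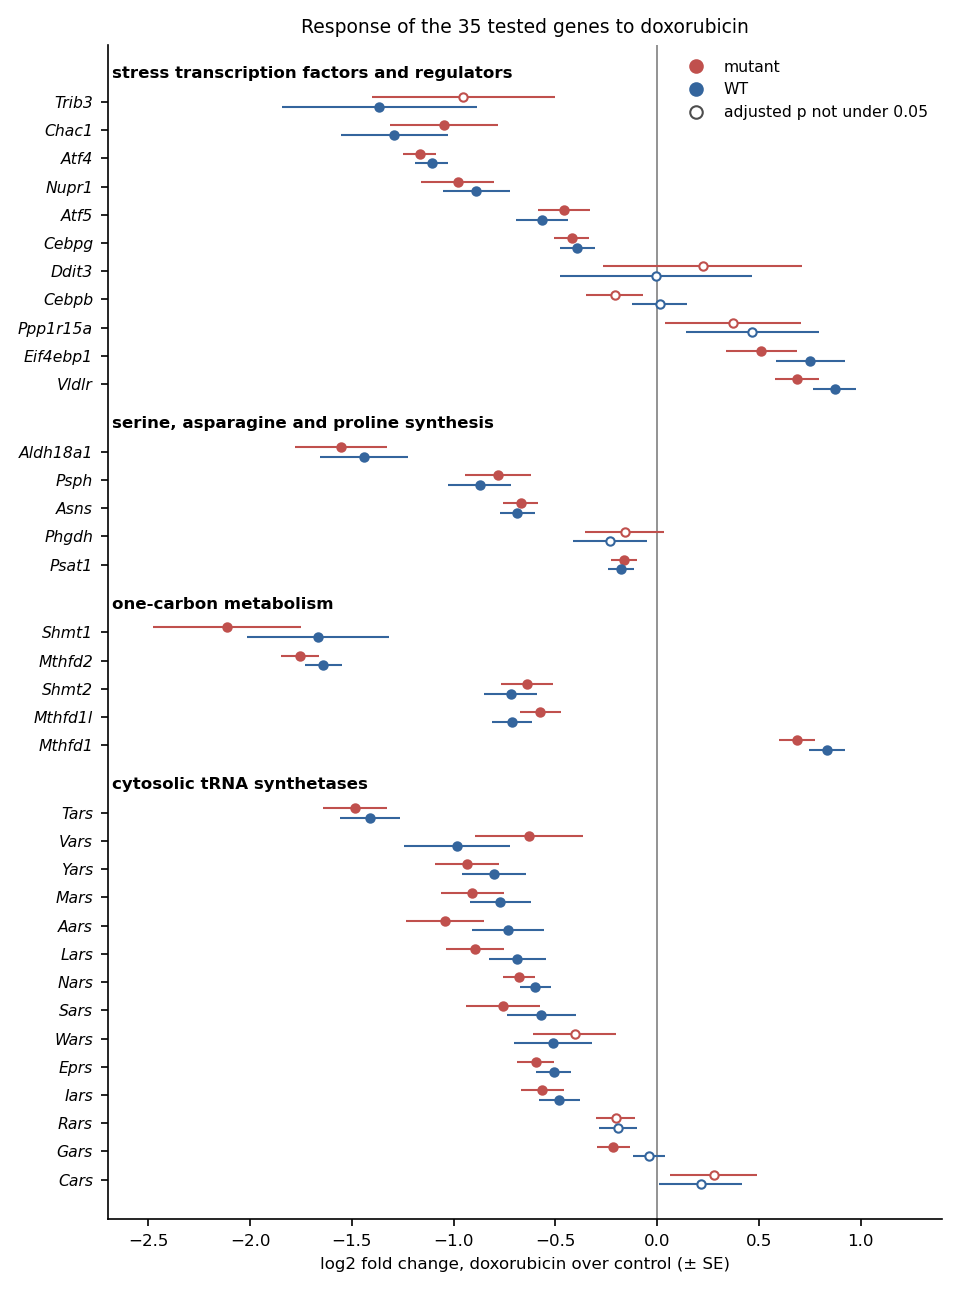
Each point is the log2 fold change of 1 gene, doxorubicin over control, with its SE, in mutant (red) and WT (blue) cells, ordered within each class by the WT value; open points did not pass an adjusted p of 0.05. Most points lie left of 0 in both genotypes, and Vldlr, Eif4ebp1 and Mthfd1 lie right of it.

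Among the transcription factors, Atf4 itself was lowered to less than 50% of its control level. It measured 42.3 and 46.5 CPM in mutant doxorubicin libraries against 94.4 and 105 CPM in mutant controls. The WT levels were 47.4 and 45.4 CPM in doxorubicin libraries against 99.2 and 101 CPM in controls. Every doxorubicin library thus lay below every control library, by a log2 fold change of -1.17 ± 0.08 in mutant cells (SE, adjusted p = 6.51e-11) and -1.11 ± 0.08 in WT cells (adjusted p = 1.04e-10). Atf5, a related bZIP factor that ATF4 can induce, fell less: 22.5 and 20.5 CPM in mutant doxorubicin libraries against 26.4 and 32.7 CPM in mutant controls. WT cells had 13.9 and 18.9 CPM in doxorubicin libraries against 26.1 and 22.7 CPM in controls. Its log2 fold change was -0.46 ± 0.13 in mutant cells and -0.57 ± 0.13 in WT cells, and the mutant call was lost without mutant control B (adjusted p = 0.122). Cebpg, a C/EBP partner of ATF4, measured 40.2 and 41.7 CPM in mutant doxorubicin libraries against 54.6 and 55.0 CPM in mutant controls, and 37.3 and 39.6 CPM in WT doxorubicin libraries against 54.3 and 46.7 CPM in WT controls. No doxorubicin library reached a control library, and Cebpg fell by 0.42 ± 0.09 on the log2 scale in mutant cells and by 0.39 ± 0.09 in WT cells.

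The other C/EBP factors of the list did not pass the test. Cebpb, induced in many stress responses, measured 8.17 and 6.85 CPM in mutant doxorubicin libraries against 9.26 and 8.09 CPM in mutant controls, and 9.35 and 7.92 CPM in WT doxorubicin libraries against 8.10 and 8.97 CPM in WT controls, so that the groups overlapped. Ddit3 encodes CHOP, the factor linked to cell death in prolonged stress, and was barely measured, with 6 to 20 counts in every library. It had 14 and 12 counts in mutant doxorubicin libraries against 11 and 15 in mutant controls, and 12 and 14 counts in WT doxorubicin libraries against 6 and 20 in WT controls. Its log2 fold change was 0.22 ± 0.49 in mutant cells and -0.01 ± 0.47 in WT cells, an SE wider than that of most of the other genes.

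Of the downstream regulators that ATF4 and CHOP are known to induce, Nupr1 and Chac1 fell in both genotypes, and Trib3 was called in WT cells only, at low counts. Nupr1, a small chromatin protein of the stress response, measured 3.24 and 2.61 CPM in mutant doxorubicin libraries against 5.01 and 6.53 CPM in mutant controls, and 3.75 and 3.29 CPM in WT doxorubicin libraries against 6.50 and 6.51 CPM in WT controls. Its log2 fold change was -0.98 ± 0.18 in mutant cells and -0.89 ± 0.17 in WT cells. Chac1, which degrades glutathione, measured 1.12 and 1.54 CPM in mutant doxorubicin libraries against 2.20 and 3.32 CPM in mutant controls, and 0.994 and 1.19 CPM in WT doxorubicin libraries against 2.34 and 2.99 CPM in WT controls. It fell by 1.05 ± 0.26 in mutant cells, a call lost without mutant control B (adjusted p = 0.0694), and by 1.29 ± 0.26 in WT cells. For Trib3, a pseudokinase that feeds back on ATF4 and AKT signalling, 15 and 7 counts in mutant doxorubicin libraries stood against 28 and 22 in mutant controls. WT cells had 10 and 7 counts in doxorubicin libraries against 14 and 30 in controls. Its log2 fold change passed in WT cells (-1.37 ± 0.48, adjusted p = 0.0193) and not in mutant cells (-0.95 ± 0.45, adjusted p = 0.0803). The difference between those responses was not called (0.41 ± 0.67, adjusted p = 0.998), the WT call was lost without WT control B (adjusted p = 0.238) or WT doxorubicin B (0.125), and the mutant value passed without mutant doxorubicin A (0.0342).

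A few genes of this class went the other way. Vldlr, a lipoprotein receptor that ATF4 can induce, measured 21.4 and 21.1 CPM in mutant doxorubicin libraries against 14.3 and 12.1 CPM in mutant controls. The WT levels were 25.1 and 22.8 CPM in doxorubicin libraries against 13.9 and 12.3 CPM in controls. It rose by 0.69 ± 0.11 in mutant cells and by 0.87 ± 0.11 in WT cells on the log2 scale, with no overlap between treated and control libraries. Eif4ebp1, which encodes the translation repressor 4E-BP1, measured 5.09 and 5.30 CPM in mutant doxorubicin libraries against 3.26 and 4.03 CPM in mutant controls, and 5.80 and 5.45 CPM in WT doxorubicin libraries against 2.82 and 3.78 CPM in WT controls. It rose by 0.51 ± 0.17 in mutant cells and by 0.75 ± 0.17 in WT cells. The mutant call for Eif4ebp1 was lost without mutant control A (adjusted p = 0.177) or mutant doxorubicin B (0.0766). Ppp1r15a encodes GADD34, the inducible subunit of the phosphatase that reverses eIF2 phosphorylation; at 0.921 and 1.11 CPM in mutant doxorubicin libraries against 0.892 and 0.677 CPM in mutant controls, and 0.928 and 1.06 CPM in WT doxorubicin libraries against 0.706 and 0.733 CPM in WT controls, it was not called (log2 0.37 ± 0.33, adjusted p = 0.369 in mutant cells; 0.47 ± 0.33, adjusted p = 0.233 in WT cells).

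**Figure D2:**
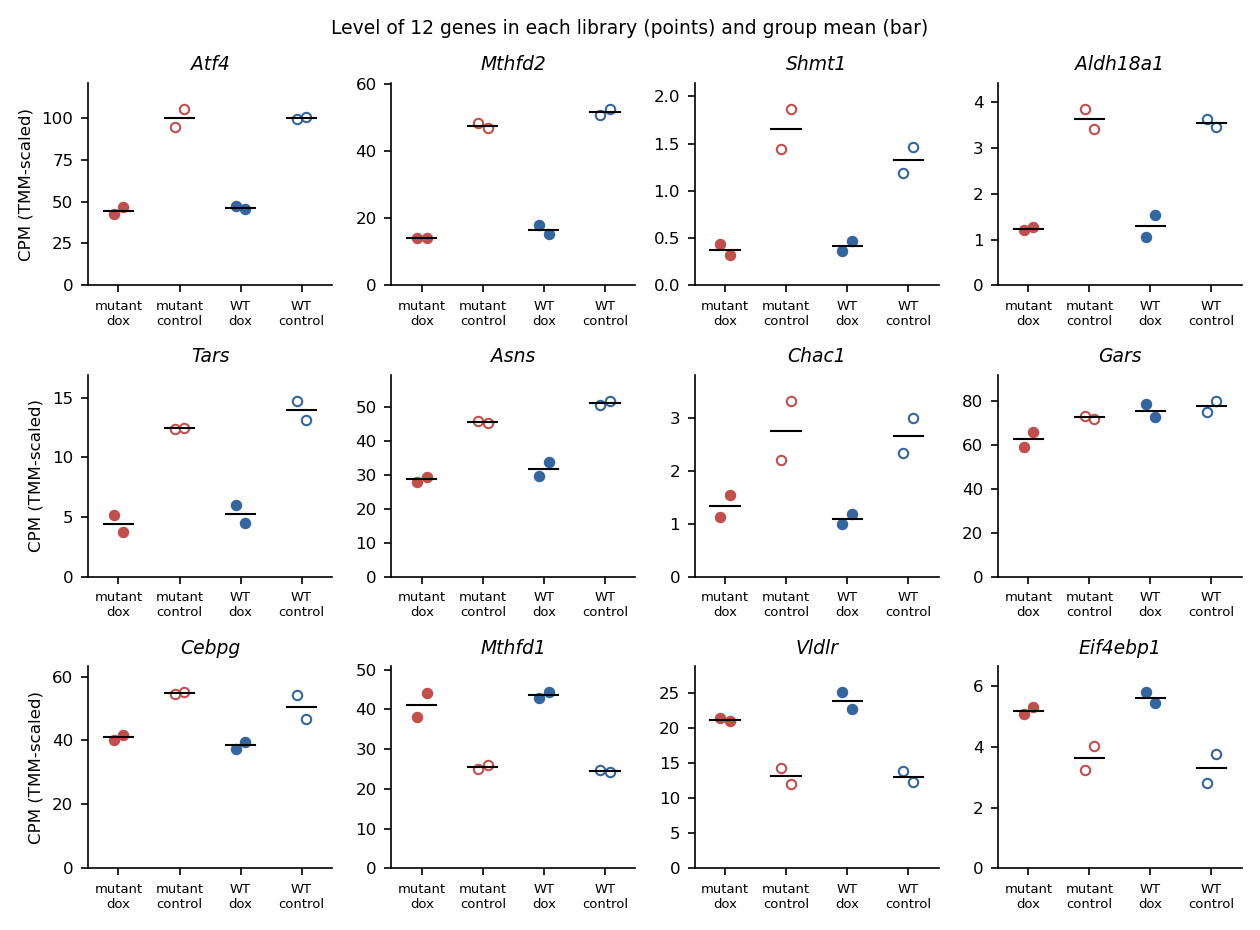
Level in CPM (vertical axes, linear, starting at 0) of 12 genes in each library (points) with the group mean (bar), in mutant cells (red) and WT cells (blue) with doxorubicin (filled) and without (open). Atf4, Mthfd2, Shmt1, Aldh18a1, Tars, Asns, Chac1 and Cebpg were lower in every doxorubicin library than in any control library, while Mthfd1, Vldlr and Eif4ebp1 were higher.

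The enzymes of serine, asparagine and proline synthesis fell unevenly. Aldh18a1, which makes the glutamate semialdehyde from which proline is built, fell most: 1.20 and 1.27 CPM in mutant doxorubicin libraries stood against 3.84 and 3.42 CPM in mutant controls, and 1.06 and 1.53 CPM in WT doxorubicin libraries against 3.64 and 3.46 CPM in WT controls. The log2 fold change was -1.55 ± 0.23 in mutant cells (adjusted p = 5.47e-06) and -1.44 ± 0.22 in WT cells (adjusted p = 6.63e-06). Pycr1, which completes that route, had too few counts to compare: 3 and 5 in mutant doxorubicin libraries, 10 and 4 in mutant controls, 8 and 3 in WT doxorubicin libraries, and 3 and 8 in WT controls. Asns, which makes asparagine from aspartate and glutamine and carries the promoter match shown above, measured 27.9 and 29.5 CPM in mutant doxorubicin libraries against 46.0 and 45.4 CPM in mutant controls. WT cells had 29.8 and 33.7 CPM in doxorubicin libraries against 50.5 and 51.8 CPM in controls. Its fall of 0.67 ± 0.09 in mutant cells and 0.69 ± 0.08 in WT cells on the log2 scale left no overlap between treated and control libraries.

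Within the serine pathway the final step fell and the first did not pass the test. Psph, the phosphatase that releases serine, measured 5.57 and 4.63 CPM in mutant doxorubicin libraries against 7.85 and 9.68 CPM in mutant controls, and 5.97 and 4.41 CPM in WT doxorubicin libraries against 9.40 and 9.55 CPM in WT controls (log2 -0.78 ± 0.16 in mutant and -0.87 ± 0.15 in WT cells). Psat1, the transaminase of the middle step, was only 10.7% lower in mutant cells and 11.5% lower in WT cells. The libraries lay close together, at 345 and 330 CPM in mutant doxorubicin libraries against 378 and 379 CPM in mutant controls. WT cells had 366 and 368 CPM in doxorubicin libraries against 413 and 416 CPM in controls. The Psat1 calls were close to the threshold (adjusted p = 0.0337 in mutant and 0.0218 in WT cells) and did not survive the loss of any 1 mutant library (adjusted p from 0.0599 to 0.219) or of WT control A (0.0510), WT control B (0.0665) or WT doxorubicin A (0.0517). Phgdh, the entry enzyme, was not called, at 2.44 and 2.77 CPM in mutant doxorubicin libraries against 2.88 and 2.94 CPM in mutant controls, and 2.65 and 3.07 CPM in WT doxorubicin libraries against 3.08 and 3.60 CPM in WT controls.

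The 2 largest falls among the 35 tested genes in either genotype, those of Shmt1 and Mthfd2, were in one-carbon metabolism, as was a rise. Mthfd2, the mitochondrial folate dehydrogenase and cyclohydrolase, fell to 14.2 and 14.0 CPM in mutant doxorubicin libraries, against 48.3 and 46.7 CPM in mutant controls, and to 17.8 and 15.3 CPM in WT doxorubicin libraries, against 50.7 and 52.3 CPM in WT controls. This was a loss of 70.4% in mutant cells (log2 -1.76 ± 0.09, adjusted p = 1.15e-12) and 67.9% in WT cells (-1.64 ± 0.09, adjusted p = 1.57e-12). Shmt1 and Shmt2 are the cytosolic and mitochondrial enzymes that move a carbon from serine to folate, and both fell. Shmt1 had 11 and 8 counts in mutant doxorubicin libraries against 42 and 55 in mutant controls. WT cells had 11 and 15 counts in doxorubicin libraries against 32 and 50 in controls (log2 -2.11 ± 0.36 in mutant and -1.67 ± 0.35 in WT cells). Shmt2 measured 6.77 and 7.72 CPM in mutant doxorubicin libraries against 10.8 and 11.8 CPM in mutant controls, and 5.57 and 6.39 CPM in WT doxorubicin libraries against 9.51 and 10.2 CPM in WT controls (log2 -0.64 ± 0.13 in mutant and -0.72 ± 0.13 in WT cells).

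The pair of formate enzymes moved in opposite directions. Mthfd1l, which releases formate in mitochondria, measured 16.0 and 16.7 CPM in mutant doxorubicin libraries against 24.6 and 24.1 CPM in mutant controls. The WT levels were 14.6 and 13.4 CPM in doxorubicin libraries against 21.7 and 24.2 CPM in controls. Mthfd1, the cytosolic trifunctional enzyme that takes formate up into folate, measured 38.2 and 44.1 CPM in mutant doxorubicin libraries against 25.0 and 26.1 CPM in mutant controls. WT cells had 42.9 and 44.3 CPM in doxorubicin libraries against 24.7 and 24.2 CPM in controls. Mthfd1l fell by 0.57 ± 0.10 in mutant cells and by 0.71 ± 0.10 in WT cells, and Mthfd1 rose by 0.69 ± 0.09 in mutant cells (adjusted p = 1.17e-06) and by 0.83 ± 0.09 in WT cells (adjusted p = 5.44e-08), all on the log2 scale.

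**Figure D3:**
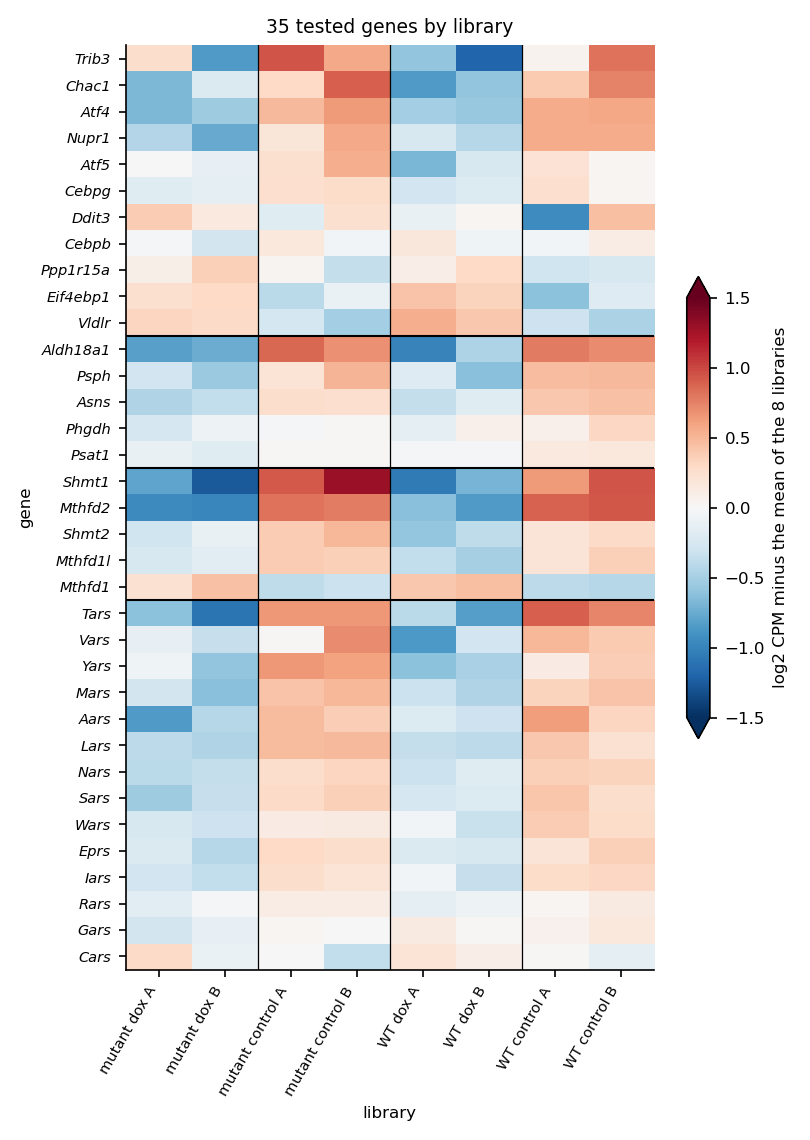
Log2 CPM of each tested gene in each library minus its mean over the 8 libraries (colour scale, log2 units; red is above the mean and blue below), with mutant libraries left of WT libraries and doxorubicin left of control within each; rows are grouped by class. Most rows are blue in the doxorubicin columns of both genotypes and red in the control columns, and the rows of Vldlr, Eif4ebp1 and Mthfd1 have the reverse pattern.

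Of the 14 cytosolic synthetases 11 fell and none rose in mutant cells, and again 11 fell and none rose in WT cells. The share lower was 78.6% in each genotype, against 25.7% of all tested genes in mutant cells and 27.9% in WT cells. Rars and Cars were called in neither genotype, Wars was not called in mutant cells and Gars was not called in WT cells. Tars, the threonine enzyme, fell most, to 5.17 and 3.72 CPM in mutant doxorubicin libraries, against 12.4 and 12.5 CPM in mutant controls, and to 6.00 and 4.48 CPM in WT doxorubicin libraries, against 14.7 and 13.1 CPM in WT controls. Its log2 fold change was -1.48 ± 0.16 in mutant cells (adjusted p = 5.83e-08) and -1.41 ± 0.15 in WT cells (adjusted p = 4.21e-08). The enzymes for alanine (Aars), tyrosine (Yars), methionine (Mars), leucine (Lars), serine (Sars) and asparagine (Nars) had log2 fold changes from -1.04 to -0.68 in mutant cells and from -0.80 to -0.57 in WT cells. Aars measured 1.96 and 2.61 CPM in mutant doxorubicin libraries against 4.90 and 4.54 CPM in mutant controls, and 3.05 and 2.85 CPM in WT doxorubicin libraries against 5.46 and 4.40 CPM in WT controls. The Yars levels were 6.41 and 4.43 CPM in mutant doxorubicin libraries against 10.5 and 10.2 CPM in mutant controls, and 4.38 and 4.79 CPM in WT doxorubicin libraries against 7.32 and 8.62 CPM in WT controls. Nars measured 45.8 and 47.4 CPM in mutant doxorubicin libraries against 73.2 and 76.1 CPM in mutant controls. WT cells gave 48.6 and 53.5 CPM in doxorubicin libraries against 77.9 and 76.7 CPM in controls. Treated and control libraries of Tars, Aars, Yars and Nars did not overlap in either genotype.

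Smaller falls were seen for Eprs, which charges both glutamate and proline tRNAs, and for Iars, the isoleucine enzyme, with log2 fold changes of -0.60 ± 0.09 and -0.56 ± 0.11 in mutant cells and -0.51 ± 0.09 and -0.48 ± 0.10 in WT cells. Vars, the valine enzyme, fell in mutant cells only at the edge of the threshold (-0.63 ± 0.26, adjusted p = 0.0493) and by 0.98 ± 0.26 in WT cells (adjusted p = 0.00292). Its libraries were spread widely, at 1.72 and 1.46 CPM in mutant doxorubicin libraries against 1.89 and 3.05 CPM in mutant controls, and 1.03 and 1.53 CPM in WT doxorubicin libraries against 2.64 and 2.46 CPM in WT controls. The mutant call for Vars was lost on leaving out any of 5 libraries (WT control A or B, mutant control B, mutant doxorubicin A or B; adjusted p from 0.0611 to 0.566), and the WT call without WT doxorubicin A (0.0525). The WT call for Sars was lost without WT control A (0.0506).

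The tryptophan enzyme Wars, which interferon also induces, was called in WT cells (-0.51 ± 0.19, adjusted p = 0.0271) and not in mutant cells (-0.40 ± 0.20, adjusted p = 0.102). That WT call was lost without WT control A (0.109), WT control B (0.0571) or WT doxorubicin B (0.194), and the difference between the responses was not called (0.11 ± 0.28, adjusted p = 0.998). Gars, the glycine enzyme, was called in mutant cells, at 59.2 and 66.2 CPM in doxorubicin libraries against 73.4 and 72.1 CPM in controls (-0.21 ± 0.08, adjusted p = 0.0281). In WT cells it was not, at 78.9 and 72.7 CPM in doxorubicin libraries against 75.4 and 80.2 CPM in controls (-0.04 ± 0.08, adjusted p = 0.696). The mutant call for Gars was lost without mutant control A (0.117), mutant control B (0.0869) or mutant doxorubicin A (0.281). Rars, the arginine enzyme, gave -0.20 ± 0.10 in mutant cells and -0.19 ± 0.09 in WT cells, and Cars, the cysteine enzyme, 0.28 ± 0.21 in mutant cells and 0.21 ± 0.20 in WT cells, none of them past the threshold.

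Few of these genes were called between the genotypes. Without doxorubicin 0 of the 35 tested genes were called between mutant and WT cells by edgeR, where 5.94% of all genes were (2.77% higher and 3.17% lower). Of the 35, 3 had an unadjusted p under 0.05 (Atf5, Psat1 and Yars) and DESeq2 called 0. Log2 fold changes, mutant over WT, ran from -0.21 to 0.37, the highest for Yars (0.37 ± 0.15, adjusted p = 0.173). With doxorubicin 1 of the 35 was called, against 7.67% of all genes (3.93% higher and 3.74% lower). Gars was lower in mutant cells, at 59.2 and 66.2 CPM against 78.9 and 72.7 CPM in WT cells (-0.27 ± 0.08, adjusted p = 0.0378). That call was lost without WT doxorubicin A (0.258), mutant doxorubicin A (0.346), mutant control A (0.0583) or mutant control B (0.0584). Atf4 differed by -0.0041 ± 0.08 between the genotypes in control cells and by -0.06 ± 0.08 with doxorubicin.

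The responses themselves were compared in an interaction term. None of the 35 genes was called by edgeR or by DESeq2, and none had an unadjusted p under 0.05, where 0.0895% of all genes were called (0.0407% higher and 0.0488% lower). The difference, mutant minus WT, ran from -0.45 ± 0.53 for Shmt1 to 0.41 ± 0.67 for Trib3, and the smallest adjusted p was 0.973. For well-measured genes it was tighter, at -0.06 ± 0.11 for Atf4, -0.12 ± 0.13 for Mthfd2, 0.02 ± 0.12 for Asns and -0.07 ± 0.22 for Tars. A p that misses the threshold does not show that the genotypes responded alike. The mutant and WT cells also differed in sex-linked transcripts: Ddx3y, a Y-linked gene, averaged 59.7 CPM in mutant and 460 CPM in WT cells with doxorubicin, and 73.9 CPM in mutant and 545 CPM in WT controls. Xist, of the inactive X chromosome, averaged 523 CPM in mutant and 0.304 CPM in WT cells with doxorubicin, and 233 CPM in mutant and 0.277 CPM in WT controls. Genotype and this difference cannot be told apart here.

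Other genes of the same pathways were read from lists beside the 36. Their counts are to be set against all tested genes. Of those, 25.7% fell and 28.3% rose in mutant cells, and 27.9% fell and 29.3% rose in WT cells. Of the remaining cytosolic synthetases and subunits of the multi-synthetase complex, 7 of 9 fell and none rose in mutant cells, and 8 of 9 fell and none rose in WT cells. Farsb, the beta subunit of the phenylalanine enzyme, fell by 1.29 ± 0.13 in mutant cells and by 1.24 ± 0.13 in WT cells on the log2 scale. Kars, the lysine enzyme, fell by 0.55 ± 0.13 in mutant cells and by 0.56 ± 0.13 in WT cells. The mitochondrial synthetases were mixed: of 19, 6 fell and 3 rose in mutant cells, and 5 fell and 4 rose in WT cells, where 3 fell without WT control B. The share lower, 31.6% in mutant cells and 26.3% in WT cells, was near that of all tested genes. Wars2, for mitochondrial tryptophan tRNA, fell in WT cells (-1.03 ± 0.27, a call lost without WT control B, adjusted p = 0.0827), and Cars2 and Nars2, for cysteine and asparagine, rose (1.30 ± 0.30 and 0.98 ± 0.13).

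Amino acid transporters known as ATF4 targets fell in part. Of 11, 5 fell and 1 rose in mutant cells (3 fell without mutant control A), and 4 fell and 1 rose in WT cells. The share lower was 45.5% in mutant cells and 36.4% in WT cells, against 25.7% and 27.9% of all tested genes. Slc38a2, the SNAT2 carrier of small neutral amino acids, fell by 0.96 ± 0.07 in mutant cells and by 0.97 ± 0.07 in WT cells. Slc1a4, a carrier of serine and alanine, fell by 1.14 ± 0.14 in mutant cells and by 0.94 ± 0.14 in WT cells, and Slc7a1, the cationic amino acid carrier, by 0.48 ± 0.07 in mutant cells and by 0.55 ± 0.07 in WT cells. The 1 transporter that rose was Slc6a9, which carries glycine (0.95 ± 0.23 in mutant and 0.60 ± 0.23 in WT cells). Its mutant call was lost without mutant doxorubicin B (adjusted p = 0.0730), and its WT call without WT control B (0.205) or WT doxorubicin B (0.188).

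In the list of further ATF4 targets, of 23 tested, 11 rose and 7 fell in mutant cells, and the same numbers rose and fell in WT cells. In each genotype 47.8% of this list rose and 30.4% fell. The 4 genes named from it, those with the largest called changes in WT cells, all rose. Its lowest log2 fold change was -1.28 in mutant cells and -1.23 in WT cells, in genes not named here. Of those that rose, 3 (Gdf15, Sesn2 and Cbs) reached 10 counts in doxorubicin libraries only, so they were tested only because they were high there. Several of its members are also known p53 targets, Sesn2 and Gdf15 among them. Cth, which makes cysteine from cystathionine, rose by 1.47 ± 0.10 in mutant cells and by 1.73 ± 0.10 in WT cells. Gdf15, a stress-induced secreted factor, had 24 and 24 counts in mutant doxorubicin libraries against 1 and 4 in mutant controls. WT cells had 57 and 49 counts in doxorubicin libraries against 3 and 2 in controls. Sesn2, a sensor that restrains mTORC1, had 21 and 18 counts in mutant doxorubicin libraries against 5 and 4 in mutant controls. WT cells had 18 and 29 counts in doxorubicin libraries against 3 and 5 in controls. Both were thus few in controls and higher in every doxorubicin library.

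**Figure D4:**
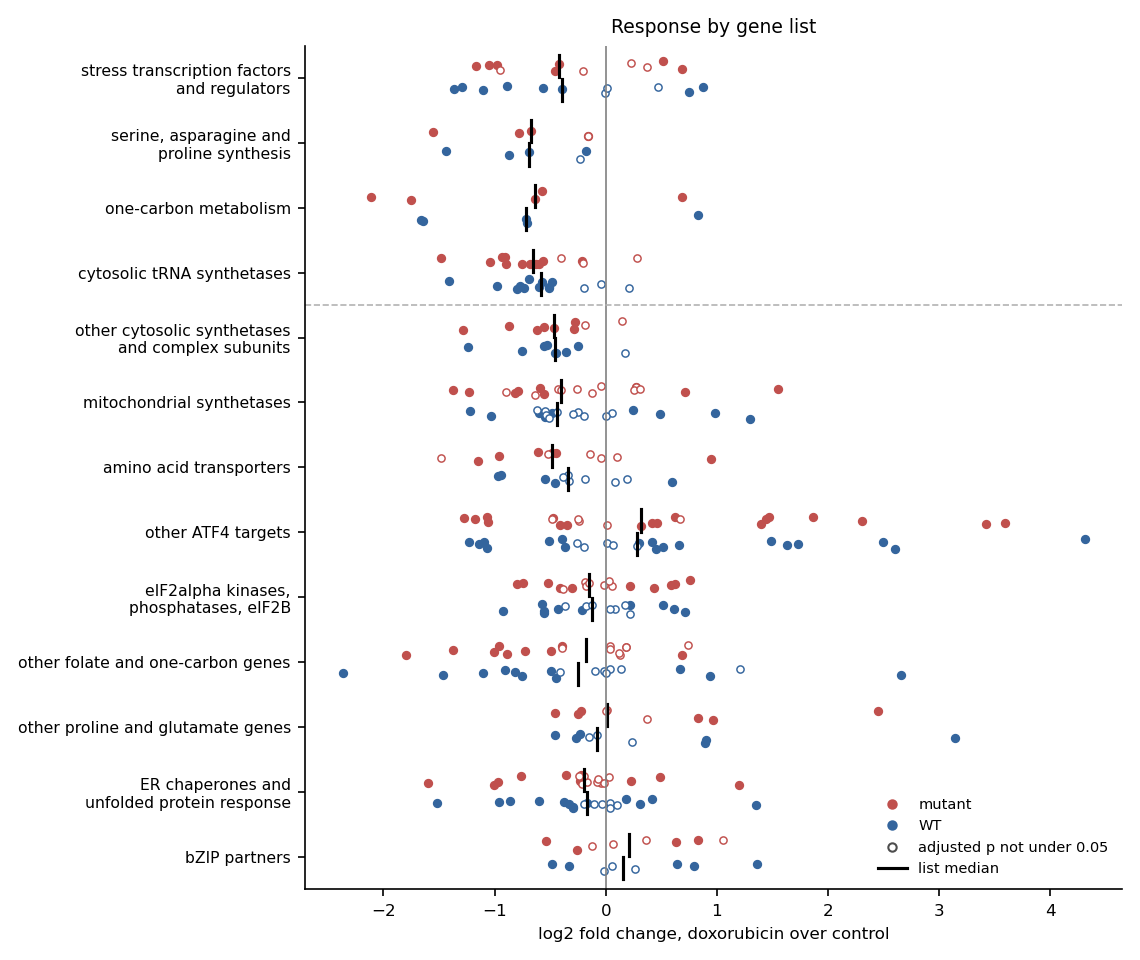
Log2 fold change, doxorubicin over control, of each tested gene (points) in the 4 classes of the 36 genes (above the dashed line) and in the other lists (below it), for mutant (red, upper row of each list) and WT cells (blue, lower row); bars mark list medians and open points did not pass an adjusted p of 0.05. Aldh1l1, listed at 0 counts in both mutant controls, is left out of the mutant points. The medians of the serine, one-carbon and synthetase classes lie between -0.72 and -0.58.

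Upstream of ATF4, Eif2ak3 and Eif2ak2, which encode eIF2 kinases, rose in both genotypes, and Ppp1r15b fell in both. The other eIF2 kinase genes read here were not called in WT cells. Eif2ak3, the endoplasmic reticulum kinase PERK, rose by 0.62 ± 0.09 in mutant cells and by 0.71 ± 0.08 in WT cells. Eif2ak2, the double-stranded RNA kinase PKR, rose by 0.59 ± 0.15 in mutant cells, a call lost without mutant control A (adjusted p = 0.0508), and by 0.61 ± 0.14 in WT cells. Ppp1r15b, the constitutive partner of the eIF2 phosphatase, fell by 0.80 ± 0.10 in mutant cells and by 0.92 ± 0.10 in WT cells, and Eif2s2, the beta subunit of eIF2, by 0.52 ± 0.08 in mutant cells and by 0.57 ± 0.08 in WT cells. In this list of 17, 5 fell and 5 rose in mutant cells, where 3 fell without mutant doxorubicin A and 2 rose without mutant control A or 3 without mutant doxorubicin B; in WT cells 6 fell and 4 rose. These counts were near the shares of all tested genes, with 29.4% lower and 29.4% higher in mutant cells. In WT cells 35.3% were lower and 23.5% higher. Kinase activity and eIF2 phosphorylation were not measured.

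The neighbouring pathways gave mixed counts. Of all tested genes 25.7% fell in mutant cells and 27.9% in WT cells. The shares lower in these lists were 44.4% in each genotype for the folate genes and 33.3% in each for the proline and glutamate genes. They were 36.8% in mutant and 47.4% in WT cells for the chaperone list, and 25% in each genotype for the bZIP partners. Among 18 other folate and one-carbon genes 8 fell in mutant cells and 8 in WT cells, with Atic, of purine synthesis, lower by 0.96 ± 0.19 in mutant cells and by 1.10 ± 0.19 in WT cells, and Slc19a1, the reduced folate carrier, by 1.80 ± 0.33 in mutant cells and by 2.37 ± 0.33 in WT cells. In that list 2 rose in mutant cells (1 without WT doxorubicin A or B) and 3 in WT cells (1 without WT doxorubicin B). Aldh1l1, counted among them in both genotypes, reached 10 counts in WT doxorubicin libraries only and was tested through them. Among 9 other proline and glutamate genes 3 fell and 3 rose in either genotype. Aldh4a1, a mitochondrial enzyme of proline breakdown and a known p53 target, rose by 2.45 ± 0.21 in mutant cells and by 3.14 ± 0.21 in WT cells, opposite to Aldh18a1 of proline synthesis. Among 19 chaperones and unfolded protein response genes 7 fell and 3 rose in mutant cells, and 9 fell and 4 rose in WT cells, where 5 fell without WT control A. Xbp1, the transcription factor of the IRE1 branch, fell by 1.60 ± 0.14 in mutant cells and by 1.52 ± 0.13 in WT cells, whereas Edem1, of the degradation of misfolded glycoproteins, rose by 1.20 ± 0.07 in mutant cells and by 1.35 ± 0.07 in WT cells. Of the bZIP partners, Nfe2l2, the antioxidant factor NRF2, rose by 0.83 ± 0.08 in mutant cells and by 0.80 ± 0.08 in WT cells, and Atf1 fell by 0.54 ± 0.06 in mutant cells and by 0.48 ± 0.06 in WT cells. Of 8 such partners 2 fell and 2 rose in mutant cells (1 fell without mutant control A or mutant doxorubicin B), and 2 fell and 3 rose in WT cells (1 fell without WT control A or WT doxorubicin A).

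Some of the 36 genes share exon sequence with a neighbour in the GENCODE M21 annotation of GRCm38, and whether the reads were counted by strand is not given in the sources used here, so reads of the partners may be mixed. Aars shares 1326 bases with Exosc6 on the same strand, so counting by strand would not separate that pair. The other pairs named here lie on opposite strands. Cebpb shares 312 bases with Tmem189, Shmt1 184 bases with Smcr8 and Atf5 82 bases with Nup62. Ddit3 and Mars overlap by 68 bases, Shmt2 and Ndufa4l2 by 32, Yars and C77080 by 30 and Ppp1r15a and Tulp2 by 12. Of the partners, Nup62 fell, as Atf5 did, by 0.78 ± 0.10 in mutant cells and by 0.99 ± 0.10 in WT cells on the log2 scale. Smcr8 rose by 0.35 ± 0.11 in mutant cells and by 0.29 ± 0.11 in WT cells, opposite to Shmt1. Exosc6 and Tmem189 were called in neither response. The values of the overlapping genes among the 36 are uncertain to that extent, and the share of reads involved was not measured.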

How the data were processed

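RNA of 8 libraries in 4 groups was measured by sequencing; the labels name both an RNA exome-capture kit and 3′ sequencing, which was not resolved. The authors deposited unnormalized read counts for each gene name; Bowtie2, HTSeq and mm9 are named in the submitters' processing notes, and versions, annotation, strand setting and treatment of reads with several matches are not given in the sources used here. The analysis used edgeR 4.0.16 under R 4.3.3. Rows with 10 or more counts in 2 or more libraries (12296) were scaled by TMM factors and fitted with 1 coefficient per group over all 8 libraries (4 residual degrees of freedom, biological coefficient of variation 0.0636). The quasi-likelihood test was two-sided, with Benjamini-Hochberg adjustment across the tested rows, and a gene was called under 0.05. The SE is the log2 fold change divided by the square root of F. CPM values are TMM-scaled, and SDs are over 2 libraries. The pipeline was tested on simulated data.

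The 5 comparisons were the doxorubicin response in each genotype, mutant against WT in each treatment, and the difference of the responses. The 36 genes and the other lists were chosen with earlier results of these data known. Each of the 36 may be named; of each other list at most 4 genes are, those with the largest called change in WT cells. Alternatives were DESeq2 1.42.0, its size factors in edgeR, upper-quartile factors, no filter, filterByExpr, a filter of 5 CPM in 2 libraries, only the libraries compared, a term for the library letter, and leaving out each library. The labels do not state that libraries of the same letter form pairs, so the letters were not taken to pair them. Libraries of the same letter did not deviate together in every pair of groups, which does not show that they are unpaired. Promoter windows came from RefSeq (GRCm38.p6), and exon overlaps from GENCODE M21, which is not the build of the counts; no coordinates were converted. Counts are reads and not independent molecules. Some results that the naming rule or the promoter search would give are not reported here.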

Additional observations from a re-analysis of the deposited data

How the results depend on the processing

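Across the alternatives, 18 to 25 of the 36 genes were called lower with doxorubicin in mutant cells and 17 to 26 in WT cells. The number called higher ran from 2 to 3 in mutant cells and was 3 in WT cells. The lowest counts of genes called lower came from the filter of 5 CPM, which leaves fewer genes tested. Leaving out 1 library gave 19 to 24 lower in mutant cells and 22 to 25 in WT cells. DESeq2 lost Eif4ebp1 (adjusted p = 0.0652) and Vars (0.148) in mutant cells and Trib3 (0.0831) and Wars (0.131) in WT cells, and upper-quartile factors, which moved the median of all genes by -0.06 (log2) in either response, added Rars (0.0227 in mutant, 0.0279 in WT). With only the libraries compared, Vars (0.0587) was lost in mutant cells and Psat1 (0.0657) in WT cells. For mutant against WT with doxorubicin, 2 of the 36 genes were called with no filter and 0 with only the libraries compared, and 0 to 2 on leaving out 1 library, against 1 reported. Over all genes, 730 were called between mutant and WT controls (390 to 838 on leaving out 1 library), 943 with doxorubicin (516 to 1206), and 11 in the difference of the responses (0 to 49), where DESeq2 called 19, no filter 48 and the filter of 5 CPM 5. Values near 0 changed sign in the WT response: Ddit3, -0.01 in the report, was 0.0263 with DESeq2 and ran from -0.484 to 0.894 on leaving out 1 library; Cebpb, 0.01, was -0.0435 with upper-quartile factors and ran from -0.105 to 0.132 on leaving out 1 library, below 0 without WT doxorubicin A or WT control A; Gars, -0.04, ran from -0.0936 to 0.0221, above 0 without WT control B or WT doxorubicin B. The cause was not tested.

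With a replicate block (a term for the library letter) 26 of the 36 genes were called in mutant cells, where Vars was lost (adjusted p = 0.0531), and 28 in WT cells; Ddit3 in WT cells was 0.0285, and no other call of these genes changed in the responses. The correlation of the A minus B deviations ran from -0.0903 to 0.207 and was above 0.1 in 4 of the 6 pairs of groups; the labels do not say what the letters stand for. Depth limits Ddit3, Trib3 and Pycr1, with at most 30 counts in any library.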
